A study of Mus musculus with 3 samples.

Results

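The 37 genes of the mouse mitochondrial chromosome were followed in the cytosolic fraction of bone-marrow-derived macrophages by total RNA-seq. They were taken as every annotated gene whose symbol begins with mt-, out of 55536 annotated genes, and comprised 2 rRNA genes, 22 tRNA genes and 13 mRNA genes. The macrophages were primary cells of strain C57BL/6J, differentiated in culture from marrow precursors. They received 100 ng/ml Lipid A for 12 h, an endotoxin moiety sensed by Toll-like receptor 4, were kept without it for 12 h, and exposed again to 100 ng/ml for 30 min. RNA was depleted of ribosomal RNA, 1 µg entered each library, and the labels give a size range of 250 to 400. The 3 biological replicates form 1 group in which every library received the same treatment, and no untreated group was analysed here. All 3 carry the same donor entry, sex and age were not collected, and nothing says that they came from separate animals, so the spread between them may be technical.

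The mitochondrial chromosome is a small circle that is read from both strands as long precursor RNAs. In mammals its mRNAs and rRNAs are mostly flanked by tRNAs, and cutting at the tRNAs releases them, after which most mRNAs receive a poly(A) tail inside the organelle. The mRNAs encode core subunits of the respiratory chain and of ATP synthase, the rRNAs build the mitochondrial ribosome and the tRNAs serve it. All other proteins of mitochondria are encoded in the nucleus, and the nuclear genome also holds stretches copied from the mitochondrial one.

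Each library has an expected count and a TPM (a length-scaled share of transcripts) per gene in a table laid out as by RSEM. It also has an estimated count and a TPM per transcript in a table laid out as by kallisto. The tables are called RSEM and kallisto here for these layouts. Annotated genes received 28759407, 54709008 and 49878183 expected counts in replicates 1, 2 and 3, which is also the order of the values below, and replicate 1 is thus the least precise for low genes. Macrophage markers were detected at 9 of 9, where detected means at least 1 TPM in every library. So were 2 of 6 neutrophil, 0 of 6 T and NK cell, 1 of 4 B cell, 0 of 4 stromal, 0 of 4 erythroid and 0 of 4 muscle and heart markers. For comparison, 17.2% of all annotated genes and 41.2% of nuclear protein-coding genes were detected. The B cell gene was Cd79b, at 1.53 TPM on average. Both neutrophil genes were calprotectin chains, with S100a9 at 4.61 TPM and S100a8 at 3.53 TPM on average, while the defining neutrophil genes Ly6g and Retnlg had 0 counts. Long RNAs that stay in the nucleus were present, with Malat1 at 303.6, 182.5 and 638 TPM, so the fraction was not free of them.

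The tRNAs that gave any sizeable signal are shown with the anticodon in capitals, from the annotated transcripts on mm10. All of them lie on the minus strand of chromosome M, where positions run 15356 to 15422 for mt-Tp (proline), 6870 to 6938 for mt-Ts1 (serine), 14071 to 14139 for mt-Te (glutamate) and 5192 to 5257 for mt-Tc (cysteine).
mt-Tp: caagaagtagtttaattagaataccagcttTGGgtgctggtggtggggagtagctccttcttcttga
mt-Ts1: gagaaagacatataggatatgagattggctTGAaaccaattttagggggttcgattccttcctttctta
mt-Te: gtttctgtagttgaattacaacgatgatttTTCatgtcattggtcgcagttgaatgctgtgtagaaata
mt-Tc: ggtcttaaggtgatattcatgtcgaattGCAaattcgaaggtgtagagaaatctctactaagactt

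Of the mRNA genes, 12 lie on the plus strand and mt-Nd6 alone on the minus strand, and neighbours overlap at a few places. The longest overlap joins mt-Atp8 and mt-Atp6 over 43 bases (M, 7927 to 7969), and the next within 1 strand joins mt-Nd4l and mt-Nd4 over 7 bases (M, 10167 to 10173). The shared bases are in capitals below, at the end of the upstream gene and at the start of the downstream gene.
mt-Atp8 (end): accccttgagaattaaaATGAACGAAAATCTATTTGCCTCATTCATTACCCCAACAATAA
mt-Atp6 (start): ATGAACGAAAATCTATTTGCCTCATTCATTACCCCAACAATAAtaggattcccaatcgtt
mt-Nd4l (end): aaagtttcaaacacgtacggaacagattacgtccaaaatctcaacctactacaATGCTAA
mt-Nd4 (start): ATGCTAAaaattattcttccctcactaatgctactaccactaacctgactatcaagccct
On opposite strands, mt-Nd5 and mt-Nd6 overlap by 14 bases. Whether counting used strand is not given in the sources used here, so reads from opposite strands cannot be told apart there or along the rest of mt-Nd6.

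A block of chromosome 1 (24611535 to 24616197 on mm10, 4663 bases, minus strand) holds 7 annotated pseudogenes that repeat mitochondrial mRNA genes almost letter for letter. These decide how much of the mRNA signal is credited to the mitochondrial genes. Gm10222 (mt-Nd4l), Gm28437 (mt-Co3), Gm10925 (mt-Atp6), Gm28661 (mt-Co2) and Gm28439 (the first 876 bases of mt-Nd4) had 0 mismatches over the aligned bases. Gm28438 differed from mt-Nd3 at T3C, and Gm29216, which repeats bases 1063 to 1545 of mt-Co1, at A1066T. Positions count from the first base of the mitochondrial gene, whose base is given first, and the differing base is in capitals.
mt-Nd3: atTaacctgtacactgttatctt
Gm28438: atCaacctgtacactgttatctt
mt-Co1: ggaAttgttttatccaactcatcc
Gm29216: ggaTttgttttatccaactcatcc
For mt-Co2, the annotated copy stops 3 bases short of the gene, and those bases, the stop codon, are in capitals.
mt-Co2 (end): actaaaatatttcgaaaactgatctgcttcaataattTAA
Gm28661 (end): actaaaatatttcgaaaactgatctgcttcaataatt
Older copies on chromosome 2 (Gm13341, Gm13340 and Gm13339, with 16, 37 and 17 mismatches) and chromosome 13 (Gm4076, with 45) are distinct enough to separate. They held at most 14.1 expected counts in any library.

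The mitochondrial rRNAs were low in the RSEM table of these rRNA-depleted libraries. Whether the depletion targeted them is not given in the sources used here. The small-subunit rRNA mt-Rnr1 (M, 70 to 1024) had 282, 117 and 262 expected counts, or 8.14, 1.60 and 4.22 TPM. The large-subunit rRNA mt-Rnr2 (M, 1094 to 2675) had 321, 119 and 224 expected counts, or 4.96, 0.88 and 1.95 TPM. Replicate 2, the deepest library, was lowest for both and replicate 1, the shallowest, highest, so mt-Rnr1 alone reached 1 TPM in every library. Together the rRNAs took 0.00210%, 0.000431% and 0.000974% of expected counts.

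The kallisto table gave the rRNAs more counts. It assigned mt-Rnr1 485, 214 and 597 estimated counts and mt-Rnr2 1252, 767 and 11772. The value of mt-Rnr2 in replicate 3 stood far from the others, at 52.6 times the expected count of the same library, against 3.90 and 6.45 times in replicates 1 and 2. The order of the rRNAs therefore depended on the table. On log2(TPM + 1), mt-Rnr2 lay below mt-Rnr1 by -0.64 ± 0.18 in the RSEM table (SD, n = 3 libraries, lower in 3 of 3) and above it by 1.35 ± 1.47 in the kallisto table. A difference was called where its sign was the same in every library and its mean exceeded 3 SD, which held for the first of these, and without replicate 1 the first was no longer called (-0.65 ± 0.25). All 6 gene pairs compared here had p = 0.25 by a two-sided exact sign-flip test, the smallest value that 3 libraries can give.

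The tRNA genes were not measurable in the RSEM table. They are 59 to 75 bases long, and that table gives an effective length of 0, the number of start positions left to a fragment, to all 22 in every library, and with it 0 counts and 0 TPM. Among all annotated genes 8.33% had an effective length of 0 in every library. These zeros are thus set by the model's length, and say nothing of the amount of tRNA in the cells.

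The kallisto table gave at least 1 estimated count to 19 of the 22 tRNA genes, and the sum over all of them was 142, 170 and 181 counts. The proline tRNA mt-Tp had 57, 64 and 58 estimated counts, the serine tRNA mt-Ts1 28, 26 and 46, the glutamate tRNA mt-Te 29, 31 and 15, and the cysteine tRNA mt-Tc 16, 23 and 18. These were the tRNAs with a mean of at least 10 estimated counts, and mt-Tp was highest in every library. The replicates of mt-Te overlapped those of mt-Ts1 and of mt-Tc in level, while mt-Ts1 lay above mt-Tc in every library. Next came mt-Ty, with 2, 8 and 6 counts. A total of 5 tRNAs (mt-Tp, mt-Ts1, mt-Te, mt-Tc and mt-Ty) reached 1 TPM in every library there. No estimated count was given to mt-Td, mt-Tr or mt-Tl2, and 0 counts allow up to 3 counts, or 0.0877, 0.0474 and 0.0472 CPM of the estimated counts. Such limits cover counting error only.

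The tRNA signal differed by the strand of the gene, a pattern seen in these data and not tested. Since it is not known whether counting used strand, the strand of the reads behind these counts cannot be told. The 8 tRNA genes of the minus strand held 136, 160 and 159 estimated counts and each had at least 1 count in some library. The 14 genes of the plus strand, which lie beside the rRNAs and all but 1 of the mRNAs, held 6, 10 and 22 counts, with 11 of them above 0, and the highest of them, mt-Tm, had 2, 3 and 8.

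**Figure D1:**
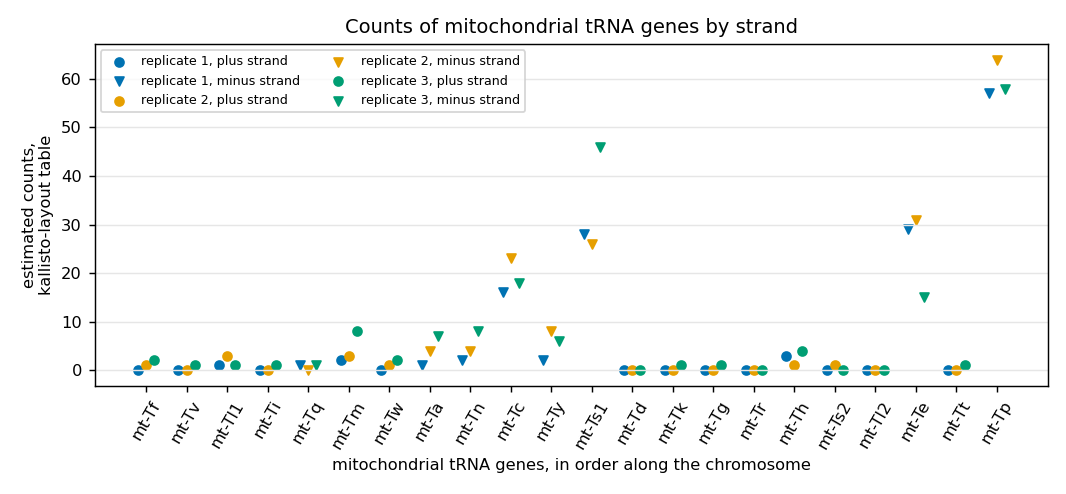
Estimated counts of the kallisto table (y axis) for the 22 mitochondrial tRNA genes in chromosome order (x axis), with 1 colour per replicate, circles for genes of the plus strand and triangles for the minus strand. The plus-strand genes stay at or below 8 counts, and mt-Tp, at 57 to 64, is the highest.

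All 13 mRNA genes received counts. Taken singly, 12 of 13 were detected in the RSEM table. With the rRNAs and tRNAs, 13 of the 37 genes were detected, against 17.2% of all annotated genes and 41.2% of nuclear protein-coding genes. With its chromosome 1 copy added mt-Co2 passed too, and in the kallisto table all 13 did. The mRNAs took 0.201%, 0.214% and 0.329% of expected counts singly and 0.273%, 0.302% and 0.444% with copies added.

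Complex I, the NADH dehydrogenase that passes electrons into the chain, has 7 mitochondrially encoded subunits. For 5 of them the RSEM table gave no expected counts to any near-identical nuclear copy. The longest, mt-Nd5, had 7312, 15337 and 21096 expected counts (95.9, 95.8 and 156 TPM). The membrane-arm subunit mt-Nd4 had 4894, 10955 and 13061 counts (89.1, 94.8 and 134 TPM), mt-Nd1 3427, 8462 and 10676 (98.6, 115 and 171 TPM), and mt-Nd2 1742, 3963 and 4700 (45.1, 48.6 and 68.0 TPM). The minus-strand gene mt-Nd6 had 1524, 3531 and 5711 counts (110.4, 118 and 225 TPM). Since it is not known whether counting used strand, reads from the opposite strand along mt-Nd6 cannot be told apart from its own. Replicate 3 was the highest in TPM for each of these 5 genes, and replicates 1 and 2 lay closer to each other than to it.

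The short complex I genes mt-Nd3 and mt-Nd4l share reads with copies. In the RSEM table mt-Nd3 had 227, 652 and 587 expected counts, which was 50.1%, 48.3% and 49.0% of the sum with Gm28438. The gene mt-Nd4l had 193, 686 and 890 counts, or 32.6%, 47.5% and 45.0% of the sum with Gm10222. The kallisto table credited mt-Nd3 with 94.1%, 64.3% and 74.3% of its sum and mt-Nd4l with 100% in every library. The sums themselves were 454, 1348 and 1197 expected counts for mt-Nd3 and 593, 1445 and 1979 for mt-Nd4l.

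Complex III, the cytochrome bc1 complex, has 1 mitochondrially encoded subunit, cytochrome b. Its gene mt-Cytb had 4193, 10230 and 12720 expected counts (95.9, 111 and 163 TPM) and no near-identical copy.

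Complex IV, cytochrome c oxidase, which reduces oxygen, takes its 3 catalytic-core subunits from the mitochondrial genome. The copper and heme subunit mt-Co1 had by far the most counts of the 37 genes, at 31529, 59268 and 85083, or 501, 448 and 761 TPM. Its partial copy Gm29216 took only the 3′ end, and mt-Co1 kept 93.3%, 92.8% and 91.8% of the sum. The other two subunits were divided differently. In the RSEM table mt-Co2 had 0, 228 and 0.03 expected counts while Gm28661 had 8121, 16885 and 22078, so that mt-Co2 kept 0%, 1.33% and 0.000136% of sums of 8121, 17121 and 22080. The deposited posterior SD of the mt-Co2 count, the table's own measure of its uncertainty, was 533, 1080 and 1230 counts and so exceeded the value in each library. The kallisto table gave mt-Co2 10.2%, 7.58% and 4.88%.

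For mt-Co3 the RSEM table gave 2061, 1059 and 6376 counts beside 4662, 15109 and 14291 for Gm28437, hence 30.7%, 6.55% and 30.9% of sums of 6723, 16168 and 20667. Taken singly, mt-Co3 had a log2 ratio of -2.42 to the other libraries in replicate 2. With the copy added the ratio was -0.18. The single value would thus give a replicate difference that the sum of reads does not hold.

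Complex V, the ATP synthase, takes 2 subunits of its membrane part from the mitochondrial genome. The proton-channel subunit mt-Atp6 had 215, 1084 and 1518 expected counts, 4.27%, 9.57% and 11.4% of sums of 5036, 11327 and 13327 with Gm10925, while the kallisto table gave it 85.8%, 92.0% and 90.9%. The 2 tables thus divided the same family in nearly opposite ways. The small subunit mt-Atp8, which has no annotated near-identical copy, had 585, 1351 and 1629 counts (565, 597 and 825 TPM).

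**Figure D2:**
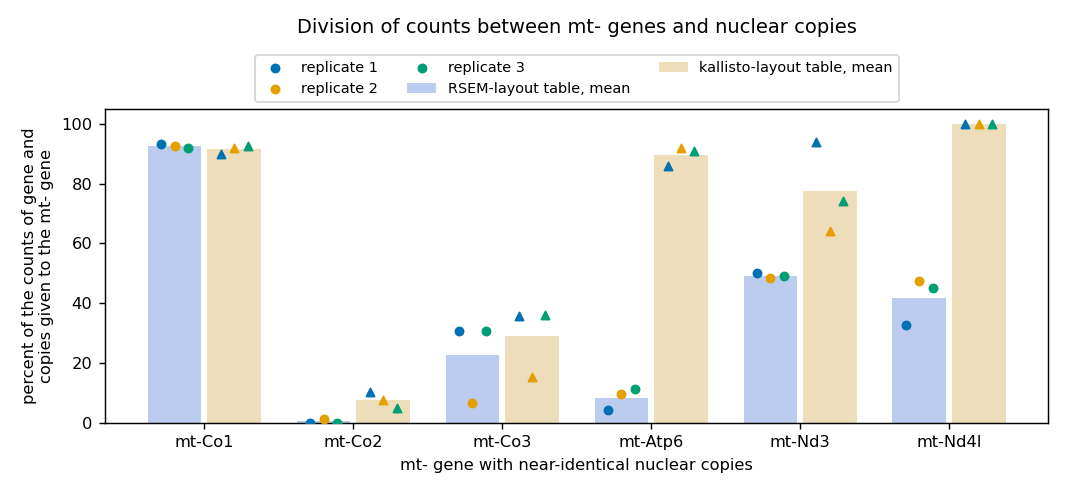
Percent of the counts of a gene and its near-identical nuclear copies that was given to the mitochondrial gene (y axis, from 0), for 6 genes (x axis), with bars at the mean of 3 libraries, circles for RSEM and triangles for kallisto values per replicate. The tables lie close for mt-Co1 (92.6% and 91.6%) and far apart for mt-Atp6 (8.41% and 89.6%). The chromosome 1 copy aligns to only 483 of the 1545 bases of mt-Co1, but to 678 of the 681 bases of mt-Atp6.

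Adding the copies brought the counts of the mRNAs close together in the 2 tables. No near-identical copy was found for any rRNA or tRNA gene, so their counts stayed as they were. Of the 39 single expected counts of the mRNAs (13 genes in 3 libraries) 25 were whole numbers within 0.03, and of the 39 sums all were. The kallisto count of a single mRNA ranged up to 22.4 times the expected count in replicate 1 (mt-Atp6, leaving out mt-Co2 with 0 expected counts). For the sums this ratio had a median of 1.09, 1.07 and 1.10 and at most reached 1.35 (mt-Nd4l, replicate 1). Over all genes with at least 10 expected counts the median ratio was 1.11, 1.08 and 1.10.

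Levels were also compared between the tables as log2 of TPM + 1, after rescaling TPM to nuclear protein-coding genes, with a difference of more than 2-fold in the same direction in every library as the criterion. Over all genes with a mean of at least 1 TPM in either table, 2.07% were higher in RSEM and 8.82% higher in kallisto by this criterion. Taken singly, mt-Co2, mt-Atp6 and mt-Nd4l were higher in kallisto and mt-Atp8 in RSEM. With copies added mt-Atp8 alone passed, at 1.14 ± 0.08 (SD, n = 3 libraries). Its counts were alike in both tables (676, 1505 and 1887 estimated counts in kallisto). Its effective length was 21.6, 22.7 and 23.5 bases in RSEM and 50.8, 47.7 and 53.0 in kallisto, for an annotated 204 bases. Of the other classes, mt-Rnr2 and 10 of 13 tRNA genes in the comparison were higher in kallisto, the tRNAs against a value of 0 in RSEM.

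**Figure D3:**
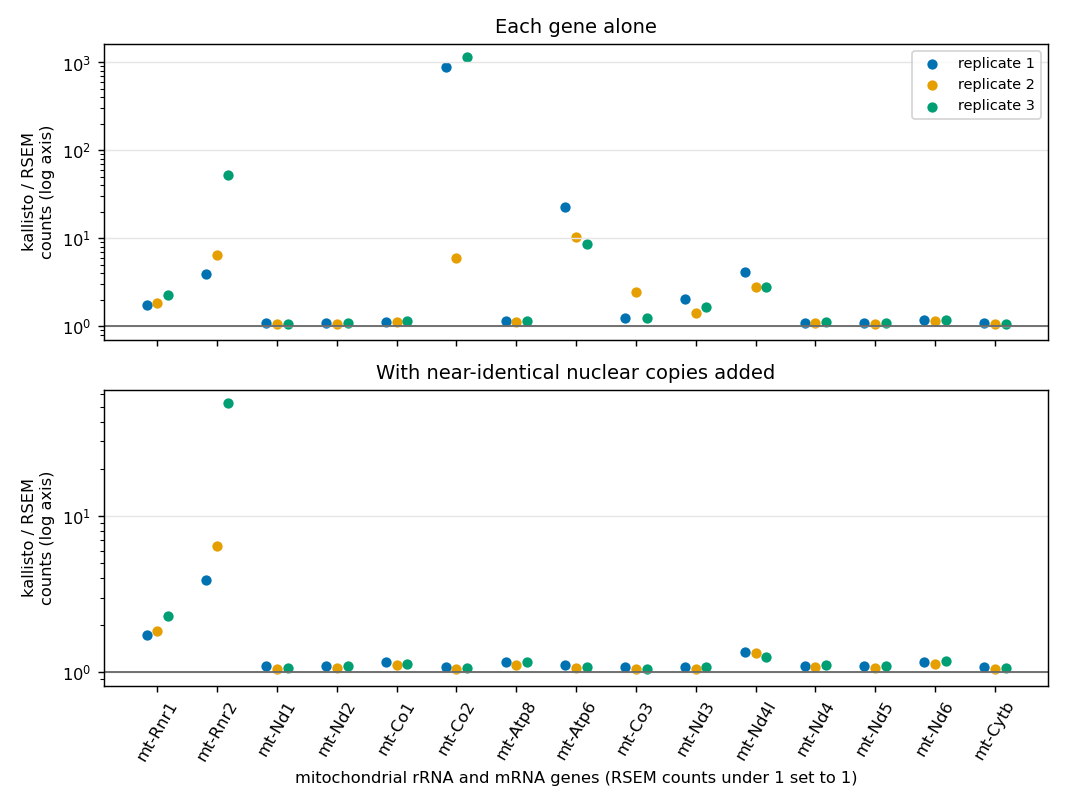
Ratio of kallisto to RSEM counts (y axis, log axis) for the mitochondrial rRNA and mRNA genes (x axis) in 3 replicates, for single genes above and with near-identical nuclear copies added below, with RSEM counts under 1 set to 1. Below, the mRNA sums lie between 1.05 and 1.35, and mt-Rnr2 in replicate 3 stands at 52.6.

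The order of the mRNAs changed with the copies. With copies added, the sum of counts divided by the effective length of the mitochondrial gene, on each library's TPM scale, gave mt-Atp8 662 ± 142 TPM (SD, n = 3 libraries), mt-Co1 616 ± 186, mt-Co2 435 ± 110, mt-Co3 325 ± 95.3 and mt-Atp6 274 ± 58.8. Then came mt-Nd4l at 194 ± 60.1, mt-Nd6 at 151 ± 63.8, mt-Nd1 at 128 ± 38.2, mt-Cytb at 123 ± 35.2, mt-Nd5 at 116 ± 34.7, mt-Nd4 at 106 ± 24.3, mt-Nd3 at 94.4 ± 15.5 and mt-Nd2 at 53.9 ± 12.4 TPM. Genes of complexes IV and V thus stood above those of complexes I and III in this order. Of the 12 neighbouring pairs 10 had the same order in every library, and 5 differed by more than 3 SD: mt-Co1 over mt-Co2, mt-Co2 over mt-Co3, mt-Atp6 over mt-Nd4l, mt-Nd1 over mt-Cytb and mt-Nd3 over mt-Nd2. The pairs were formed from the same means, so their order is a description. On kallisto TPM mt-Nd3 over mt-Nd2 was not called (0.69 ± 0.27), and per base of annotated length mt-Cytb and mt-Nd2 had the higher means of their pairs, each in 2 of 3 libraries. The first place was not settled, since mt-Atp8 lay above mt-Co1 in 2 of 3 libraries.

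The place of the shortest genes rested on the effective length. Per base of annotated length, mt-Co1 came first with 41.1 expected counts per base and mt-Atp8 at rank 10 of 13 with 5.83. Then mt-Co2 had 23.1, mt-Co3 18.5 and mt-Atp6 14.5 counts per base, and the other genes were between 2.87 (mt-Nd3) and 7.99 (mt-Nd5). The plus-strand genes mt-Nd5, mt-Cytb, mt-Nd1 and mt-Nd4 lay between 6.99 and 7.99 counts per base, with the minus-strand mt-Nd6 at 6.91. The value of mt-Nd6 may hold reads of the opposite strand, since the use of strand is not known.

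**Figure D4:**
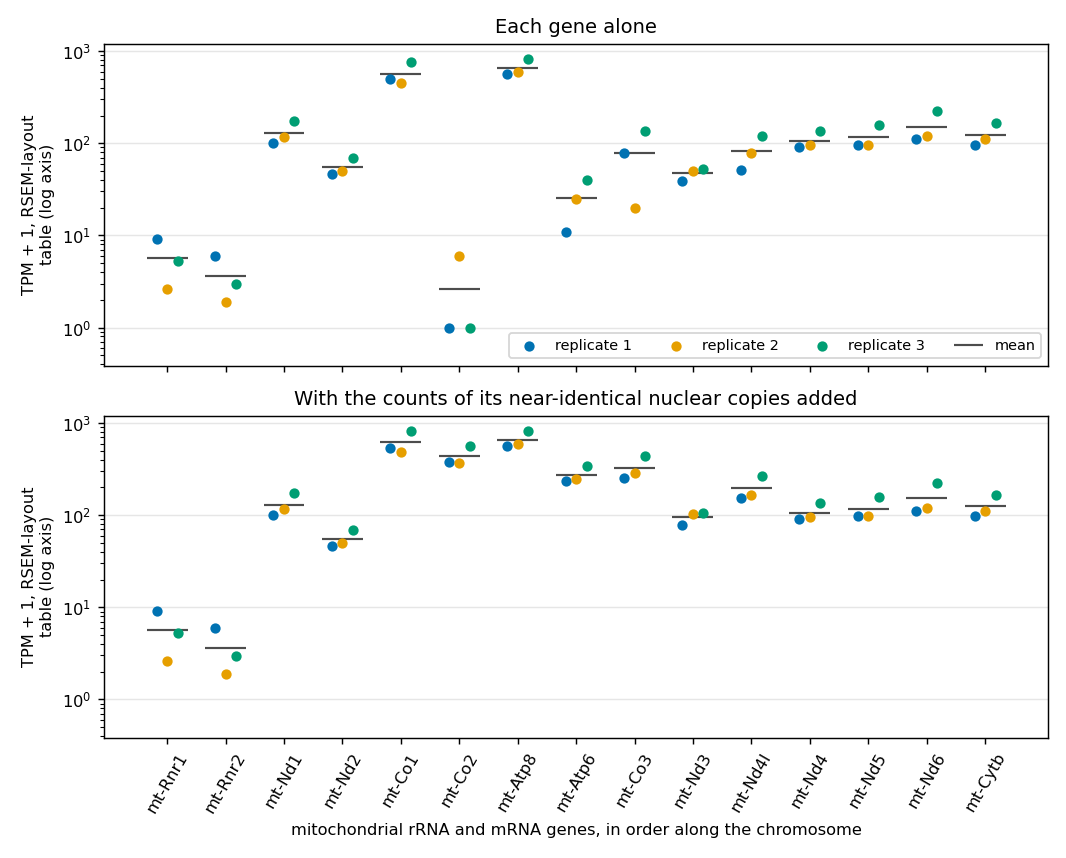
TPM + 1 of the RSEM table (y axis, log axis) for the mitochondrial rRNA and mRNA genes in chromosome order (x axis), with 1 point per replicate and a bar at the mean, for single genes above and with near-identical nuclear copies added below. Adding the copies lifts mt-Co2 from a mean of 1.64 to 435 TPM and mt-Atp6 from 24.1 to 274, and leaves mt-Nd1 at 128.

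Genes that overlap or differ in position were then compared within each library on log2(TPM + 1). mt-Co1 exceeded mt-Nd1 by 2.14 ± 0.19 and mt-Cytb by 2.20 ± 0.18, in 3 of 3 libraries (SD, n = 3, both called, exact sign-flip p = 0.25), and both stayed called under every alternative tried. The overlapping pair mt-Atp8 and mt-Atp6, which in mammals are translated from 1 shared mRNA, differed by 4.89 ± 0.70 singly. With the copies of mt-Atp6 added the RSEM difference was 1.27 with an SD of 0.00189, which was called. With the kallisto values it was 0.33 ± 0.04 singly, called, and 0.17 ± 0.10 with copies added, not called. Per base of annotated length, mt-Atp6 with copies had more counts than mt-Atp8.

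The overlapping pair mt-Nd4 and mt-Nd4l, also on 1 shared mRNA in mammals, turned with the treatment of the copies and with the length used. Singly mt-Nd4 lay above mt-Nd4l by 0.42 ± 0.34, which was not called, although without replicate 1 it was (0.22 ± 0.07). With copies added mt-Nd4 lay below by -0.85 ± 0.11, which was called, and the kallisto table gave -0.84 ± 0.02. Per base of annotated length with copies added, mt-Nd4 was the higher one instead, at 6.99 against 4.51 expected counts per base on average. The opposite-strand pair mt-Nd5 and mt-Nd6 differed by -0.34 ± 0.16, with mt-Nd5 lower in 3 of 3 libraries but not called. It was called without replicate 3 (-0.25 ± 0.07) and in the kallisto table (-0.44 ± 0.12). Per base of annotated length mt-Nd5 was higher instead, by 0.28 ± 0.19. Whether reads of the opposite strand were counted for mt-Nd6 is not known.

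Each library holds both parts of the respiratory complexes. The levels are those of the cytosolic fraction, whose content of mitochondria was not measured here. For complex I the nuclear list held 37 genes taken by their Nduf names, Ndufa4 included, and not by proven membership. The median log2(TPM + 1) of the 7 mitochondrial genes exceeded that of this list by 1.66 ± 0.31 (SD, n = 3, called), and by 1.80 ± 0.38 with copies added. In TPM the mitochondrial median was 89.1, 94.8 and 134 and the nuclear median 31.6, 33.0 and 32.3. The nuclear genes ranged from Ndufb8, Ndufa3 and Ndufc2, accessory subunits at 78.6, 75.9 and 73.3 TPM on average, down to Ndufb4 at 8.05 TPM. For complex IV the 3 mitochondrial genes differed from the 10 nuclear ones by -1.13 ± 1.47 singly, not called, and by 1.72 ± 0.35 with copies added, called. The nuclear genes Cox4i1, Cox5a and Cox8a stood at 199, 166 and 156 TPM and Cox7b at 31.3 TPM. For complex V the difference from 16 nuclear genes was 0.71 ± 0.66 singly, not called, and 2.52 ± 0.36 with copies added, called. The mitochondrial median there is over 2 genes, and the level of mt-Atp8 rests on its short effective length in RSEM. On kallisto values the single-gene difference was 1.88 ± 0.40, called. Among the nuclear genes of complex V, Atp5b, the catalytic beta subunit, stood at 232 TPM, Atp5l at 135 TPM, Atp5e at 109 TPM and Atp5g1 at 27.8 TPM.

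The mitochondrial mRNAs differed between the replicates by more than counting error. A chi-square test, which asks whether rounded expected counts follow the TMM-scaled library sizes, with Benjamini-Hochberg adjustment over 13410 genes, called all 15 members tested, the 2 rRNAs and 13 mRNAs, where 64.8% of all genes tested were called. The test finds small differences in deeply counted genes, so the size of the spread was also estimated. The biological coefficient of variation from edgeR, the relative spread between replicates beyond counting error, had a median of 0.183 over the 13 mRNAs with copies added, with a range from 0.151 (mt-Nd2) to 0.236 (mt-Nd6). Its median was 0.134 over all genes and 0.110 over those averaging 1000 counts or more. The rRNAs, single, stood at 0.417 (mt-Rnr1) and 0.453 (mt-Rnr2).

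Replicate 3 held relatively more mitochondrial mRNA. On TMM-scaled counts with copies added, 13 of 13 mRNAs were higher in replicate 3 than in the mean of the other libraries, by a median log2 ratio of 0.63, from 0.27 (mt-Nd3) to 0.98 (mt-Nd6). In replicate 1 the ratio was below 0 for 13 of 13, with a median of -0.46, and in replicate 2 for 12 of 13, with a median of -0.16 and mt-Nd3 at 0.26. The medians over all genes tested were -0.02, 0.00431 and 0.00219, values that the scaling itself holds near 0. Of those 13404 genes, 6761 were higher in replicate 3, 7055 were lower in replicate 1 and 6594 were lower in replicate 2. The ratios of the replicates depend on each other, so these are not separate results, and single libraries allow no test. The nuclear genes listed for the complexes did not share the pattern, with median ratios in replicate 3 of -0.07 for complex I, -0.04 for complex IV and -0.15 for complex V. The rRNAs had another order, with a median of 1.60 in replicate 1, -1.88 in replicate 2 and -0.38 in replicate 3 in the RSEM table. On kallisto counts the median rRNA ratio turned to -0.20 in replicate 1 and 1.59 in replicate 3. This turn rested mainly on mt-Rnr2, whose 11772 estimated counts in replicate 3 stood far from its other values. On TPM of that table, as deposited or rescaled, mt-Rnr1 stayed highest in replicate 1 and lowest in replicate 2. A high replicate 3 was thus not shared by both rRNAs.

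The same library was also high in RNAs that stay in the nucleus. All 4 tested of 5 such markers were higher in replicate 3, by a median log2 ratio of 1.17 on single-gene counts, against -0.22 in replicate 1 and -1.33 in replicate 2. Among all 13410 genes tested singly, 6765 were higher in replicate 3. Their summed level was 330 TPM in replicate 1, 198 TPM in replicate 2 and 697 TPM in replicate 3, with Malat1 holding most of it and Meg3 at or near 0. Macrophage markers had a median ratio of 0.09 in replicate 3, but were not flat. They ranged from -0.60 (Cd14) to 0.68 (Itgam), with 5 of 9 higher and 4 lower. The part of nuclear RNA, or of other material in the fraction, in the mitochondrial pattern was not tested. In a bulk fraction, less RNA per cell and fewer cells or organelles in the fraction cannot be told apart.

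The scale mattered for this pattern. For single genes, the median ratio of the mRNAs in replicate 3 was 0.66 on RSEM counts and -0.000502 on TPM of the kallisto table as deposited. The mRNAs took 0.0856%, 0.0961% and 0.0959% of that TPM singly, and 0.113%, 0.131% and 0.126% with copies added. On the estimated counts of that table they took 0.207%, 0.223% and 0.312% singly. After rescaling to nuclear protein-coding genes the single-gene median ratio of that TPM in replicate 3 was 0.55, with mt-Nd1 at 315, 393 and 556 on that scale.

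**Figure D5:**
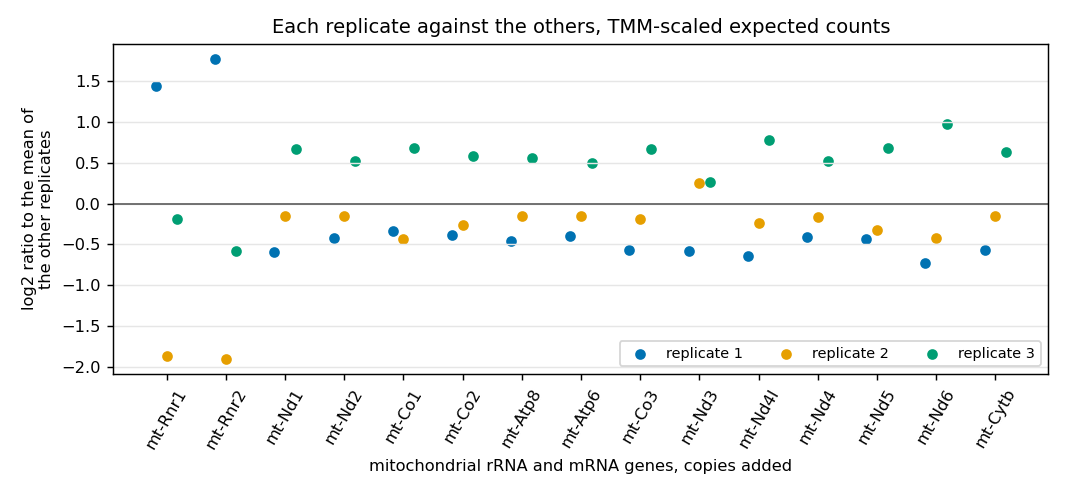
Log2 ratio of each replicate to the mean of the other replicates on TMM-scaled expected counts (y axis) for the mitochondrial rRNA and mRNA genes with near-identical nuclear copies added (x axis), with 1 colour per replicate. Replicate 3 lies above 0 for all 13 mRNAs, from 0.27 to 0.98, and below 0 for both rRNAs.

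Nuclear genes were listed for mitochondrial transcription, RNA processing and decay, DNA replication and tRNA charging. The genes of these lists were present at lower mean levels than the mRNAs with copies added. Taken singly, mt-Co2 at 1.64 TPM and mt-Atp6 at 24.1 TPM lay below Slirp, the highest of these nuclear genes by mean TPM. Of the mitochondrial transcription list 7 of 9 genes were detected and 3 of 8 tested passed the chi-square test. For comparison, 41.2% of nuclear protein-coding genes were detected and 64.8% of all genes tested passed. The packaging and initiation factor Tfam stood at 5.49, 5.84 and 4.16 TPM, the factor Mterf3 at 5.32, 5.02 and 4.08 TPM and the elongation factor Tefm at 4.04 TPM on average, down to the rRNA methyltransferase Tfb1m at 1.94, 2.39 and 2.18 TPM. Median ratios of this list stayed between -0.07 and 0.13 in the 3 replicates. For DNA replication 5 of 9 genes were detected and 3 of 9 passed, led by the single-strand binding protein Ssbp1 at 8.96 TPM, the ribonuclease Rnaseh1 at 4.44 TPM and the polymerase Polg at 3.60 TPM, with the nuclease Mgme1 the lowest detected at 2.31 TPM on average.

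Of 22 genes of the RNA processing and decay list 21 were detected and 13 of 22 passed, beside the 64.8% of all genes tested. The gene not detected, Twnk, was also on the DNA replication list. Slirp, the partner of the mRNA-stabilising protein Lrpprc, stood at 43.1, 42.9 and 31.0 TPM and was lowest in replicate 3. Lrpprc itself went the other way, with 5.60, 6.01 and 6.30 TPM. Of the whole list, 7 genes were higher in replicate 3 than in the mean of the other libraries and 15 were lower. Over all 13410 genes tested singly, 6765 were higher there and 6645 lower. The oligoribonuclease Rexo2 stood at 23.9 TPM on average, Hsd17b10, a subunit of mitochondrial RNase P, at 14.6, 16.1 and 13.4 TPM, and Fastkd1, the lowest detected, at 1.51, 1.55 and 1.48 TPM. The list had median ratios of -0.08, 0.11 and -0.08. Of 19 tRNA synthetases 14 were detected and 10 passed, again beside 64.8%. The highest, Kars at 23.0 TPM and Gars at 20.4 TPM on average, serve the cytosol as well as mitochondria, Fars2 stood at 8.14 TPM and Pars2, which charges the proline tRNA, at 1.16 TPM.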

How the data were processed

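Total RNA-seq of 3 libraries of 1 group was used, with the replicate numbers of the labels. Per the file headers, the authors' gene tables hold an expected count, an effective length, a TPM value and a posterior SD of the count per gene, in the layout of RSEM. The deposited transcript tables in the layout of kallisto hold an estimated count and TPM, which were summed here per gene. Per the labels the build was mm10, and each deposited read-me names the annotation as GENCODE M21, whose transcripts supplied the printed sequences. The sources used here give neither the quantifiers' versions nor the use of strand. Rows that name no annotated gene (0.774%, 0.207% and 0.167% of expected counts) were left out. Depth is given with the results. Members and lists were chosen with earlier results of these data known.

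TMM scaling of the rounded expected counts used edgeR 4.0.16 (R 4.3.3), as did the dispersions, with only an intercept and the filterByExpr filter. Genes averaging 10 counts or more entered the chi-square test (scipy 1.17.1), called at an adjusted p under 0.05. Differences used log2(TPM + 1), which understates those of low genes, and replicate ratios added 0.5 to scaled counts. Nuclear copies were annotated transcripts with at least 95% identity over at least 80% of the shorter sequence (blastn 2.17.0), and TPM of a sum is the summed count over the mitochondrial gene's effective length. Named were both rRNAs, all mRNAs, tRNAs and copies with a mean of at least 10 counts, and per nuclear list the 3 highest and the lowest detected by mean TPM. Additional names (mt-Ty, mt-Tm, tRNAs at 0, older copies, markers, Lrpprc and Twnk) were chosen after values were seen, as were comparisons of neighbours in the order of levels. Symbols without a match are left out of list sizes. The chi-square test was tested on simulated data, where it called 0 of 13432 genes drawn with counting noise only, and 94% of 50 genes changed 1.5-fold in 1 library and averaging 100 counts or more. Alternatives were leaving out each replicate, other thresholds, filters and pseudocounts, DESeq2 1.42.0 size factors, nuclear protein-coding totals, the kallisto table, a wider copy rule, list means and summing with copies.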

Additional observations from a re-analysis of the deposited data

How the results depend on the processing

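Of 209 alternative values for 30 results, 173 kept their direction and their side of the criterion, or stayed within the spread between libraries. Counts of members were judged by their fold difference from the main count instead. For replicate ratios that spread was 0.51 for mRNA and 1.17 for rRNA in log2. Sizeable changes in a ratio thus still counted as kept. Gene pairs and complexes were judged by sign and call alone, whatever the size of the change. By that rule mt-Atp8 minus mt-Atp6 was kept at 0.33 in kallisto and 1.27 with copies added, against 4.89 singly in RSEM. Some of the values counted as kept could not have changed. The RSEM share of tRNA is 0 by its effective length, and no copy exists to alter the rRNA shares or the rRNA pair. Dropping the filter on low counts likewise left the replicate ratios of both classes as they were. With the kallisto values, 20 members were detected. Their shares of counts were 0.00870% for rRNA and 0.000323% for tRNA, and their shares of TPM 0.00174%, 0.00531% and 0.0925% for rRNA, tRNA and mRNA. Summed with copies, mRNA took 0.339% of counts and 0.328% of TPM. The share kept by the mitochondrial gene in the kallisto table was 91.6% for mt-Co1, 7.55% for mt-Co2, 89.6% for mt-Atp6, 77.6% for mt-Nd3 and 100% for mt-Nd4l. The median mRNA ratio of replicate 2 was 0.20 on kallisto TPM, and that of replicate 3 -0.000502. The rRNA ratio of replicate 1 was -0.20 on kallisto counts, 0.12 on kallisto TPM and -0.27 on that TPM rescaled, and that of replicate 3 was 1.59, 1.07 and 1.57. In kallisto mt-Rnr2 minus mt-Rnr1 was 1.35, mt-Nd4 minus mt-Nd4l -0.84 and mt-Nd5 minus mt-Nd6 -0.44. With copies added mt-Nd4 minus mt-Nd4l was -0.85. For single genes per base of annotated length, a choice made after seeing the data like those on TPM ratios, mt-Nd4 minus mt-Nd4l was 1.96 and mt-Nd5 minus mt-Nd6 0.28. Complex IV stood at -1.44 with list means and 1.72 with copies added, and complex V at 1.88 in kallisto and 2.52 with copies added. For values that differ between the tables the cause was not tested.

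Leaving out each replicate in turn, the mRNA ratio of replicate 2 ranged from -0.52 to 0.22 and the rRNA ratio of replicate 3 from -1.12 to 1.22. The pair mt-Rnr2 minus mt-Rnr1 ranged from -0.72 to -0.54, mt-Nd4 minus mt-Nd4l from 0.22 to 0.54 and mt-Nd5 minus mt-Nd6 from -0.41 to -0.25. No paired analysis was possible because the libraries form 1 group. Replicate 1 is the shallowest, and tRNAs, like mt-Atp8, are shorter than the size range that the labels give. Sequence shared with chromosome 1 limits single values of mt-Atp6, mt-Nd4l, mt-Nd3, mt-Co3 and mt-Co2.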
